A study of Mus musculus with 4 samples.

Results

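The 10 genes described here build the pre-B cell receptor, cut and join the immunoglobulin gene segments, or carry the survival signal of the precursor B cell. They were taken from the deposited tables by gene name, as 10 of 55401 genes. The set was proposed after earlier results of these libraries were known and was selected on the lower values of Igll1 and Cd79a after exercise, so the difference between the groups is given for these genes as a description. They were part of the test across all genes, whose calls are counted for them once, and nothing is read from that count. Bone marrow of the tibia was sequenced from wild-type male C57/B6 mice that were 8 weeks old when the high-fat diet (HFD) began. One group, named Ob here for obesity, received HFD alone, and the other, named Ob + Exe, ran on a treadmill at moderate intensity for 12 weeks while on the same diet. Each group has 2 libraries, numbered 1 and 2, so both groups share the diet that was given to establish obesity, and no lean or chow-fed mouse is among the 4 libraries. The RNA-seq used n = 2 in each group, the labels do not state that a library is a single mouse, and the spread between the 2 libraries of a group can hold technical as well as biological differences.

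A B cell precursor first joins the segments of its immunoglobulin heavy chain gene. The RAG1 and RAG2 proteins cut the DNA beside the segments, and terminal deoxynucleotidyl transferase, the product of Dntt, adds bases to the cut ends before they are joined. A heavy chain that can be made is then tested on the cell surface with the surrogate light chain, which stands in for the light chain that has not been rearranged yet. The surrogate light chain is made of the lambda 5 protein, encoded by Igll1, and a VpreB protein, encoded by Vpreb1 or Vpreb2. Cd79a and Cd79b encode the signaling chains of this pre-B receptor and later of the B cell receptor, and Il7r encodes the receptor chain for IL-7, the growth factor of precursor B cells in the mouse marrow.

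The levels are FPKM (fragments per kilobase of transcript, normalised to the number of mapped fragments), which correct for gene length and library size, summed over the transcripts of a gene and scaled between libraries. The reads behind a value are given as read equivalents, that is, the coverage times the length of the transcript over a read of 150 bases. Read equivalents on all transcripts ranged from 44310505 to 53038186 per library. The labels name mesenchymal stem cells and fibroblast beside bone marrow, but 9 stromal and fibroblast markers summed to between 109 and 172 scaled FPKM per library, whereas 8 neutrophil markers summed to between 25616 and 61315, so markers of blood-forming marrow stood far above those of the labelled cell type. Across 12409 genes, which are not independent replicates, the log2 levels of the Ob + Exe libraries correlated at r = 0.900, those of the Ob libraries at r = 0.949 and pairs across the groups at 0.909 to 0.948, so the Ob + Exe libraries were less like each other than any pair across the groups. In whole marrow, fewer cells of a type and less RNA per cell cannot be told apart.

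The genes of the surrogate light chain lie on chromosome 16 of GRCm38. Igll1 (ENSMUSG00000075370.12) spans 16860671 to 16863985 on the minus strand, and Vpreb1 (ENSMUSG00000059305.12) follows on the same strand from 16868403 to 16870843, with 4417 bases between them. Vpreb2 (ENSMUSG00000059280.4) lies 1109584 bases from Vpreb1 on the plus strand, from 17980428 to 17981273. Vpreb1 and Vpreb2 are close copies. Their coding sequences of 429 bases differ at 9 positions, and an identical run of 196 bases is longer than a read of 150 bases. Of the 617 stretches of 150 bases in the transcript Vpreb1-201, 47 (7.62%) also occur in Vpreb2-201, so part of the reads, taken singly, could come from either gene. The authors sequenced reads in pairs, and whether the other read of a pair tells the copies apart was not tested. The stretch of 150 coding bases with the most differences, from coding base 238 to 387 and within 1 exon of each gene, is shown because it is where reads can tell the copies apart. It is taken from the GENCODE vM21 transcripts, is given 5′ to 3′ on the coding strand, and lies at chr16:16868638-16868787 on the minus strand for Vpreb1 and at chr16:17980889-17981038 on the plus strand for Vpreb2. Capitals mark the 6 positions that differ.
Vpreb1: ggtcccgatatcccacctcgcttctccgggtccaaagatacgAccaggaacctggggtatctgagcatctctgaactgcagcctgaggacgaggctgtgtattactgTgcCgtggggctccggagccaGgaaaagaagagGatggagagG
Vpreb2: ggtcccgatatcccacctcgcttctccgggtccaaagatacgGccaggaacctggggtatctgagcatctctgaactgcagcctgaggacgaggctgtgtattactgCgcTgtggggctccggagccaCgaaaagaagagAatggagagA

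Igll1 stood at 14.4 and 13.0 scaled FPKM in the libraries of Ob and at 4.998 and 3.52 after exercise. Both Ob + Exe libraries lay far below both Ob libraries, with a mean of 13.7 ± 0.994 in Ob against 4.26 ± 1.04 in Ob + Exe (SD, n = 2 each). This is a mean 68.8% lower and a log2 fold change of -1.68, against an SD within the groups of 0.257 on the log2 scale. The values rested on 976 and 913 read equivalents in Ob and on 431 and 217 in Ob + Exe. Igll1 had the lowest ratio of Ob + Exe to Ob among the members apart from Vpreb2, whose reads were few.

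Vpreb1 did not move evenly with Igll1. Its level was 12.0 and 11.3 scaled FPKM in Ob, but 8.63 in the first and 2.54 in the second Ob + Exe library. The groups did not overlap, but the first Ob + Exe library differed from the Ob mean by only -0.43 on the log2 scale and the second by -2.15. The log2 fold change of -1.29 therefore rested largely on the second Ob + Exe library, and the SD of the Ob + Exe pair was 1.22 on the log2 scale against 0.0609 in Ob. Without Ob + Exe replicate 2 the log2 fold change of Vpreb1 was -0.43. The ratio of Igll1 to Vpreb1 within a library was 1.20 and 1.15 in Ob, against 0.579 and 1.39 in Ob + Exe, so the exercised libraries lay on opposite sides of the Ob libraries. Top3b, a topoisomerase gene on the opposite strand, overlaps the span of Vpreb1, and no source states that reads were counted by strand. Top3b stood at 17.9 and 18.7 scaled FPKM in Ob, against 29.6 and 13.1 in Ob + Exe, high and low in the same Ob + Exe libraries as Vpreb1, and its part in the Vpreb1 values was not tested.

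Vpreb2 was measured at 1.63 and 0.814 scaled FPKM in Ob and 0.267 in the first Ob + Exe library, and it is listed at 0 in the second. These values came from 84, 41, 12 and 0 read equivalents. The groups did not overlap, but with so few reads the log2 fold change depended on the added constant. It was -2.71 with 0.1 added to the FPKM, -0.96 with 1 added and -4.46 with 0.01 added. No firm size can be given for Vpreb2, and its reads can be shared with Vpreb1.

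Vpreb3 encodes a protein related to VpreB that associates with immunoglobulin chains inside the cell and is not part of the surrogate light chain on the surface. It lies on chromosome 10 from 75943057 to 75949657 on the plus strand (ENSMUSG00000000903.3). Its level was 48.5 and 52.5 scaled FPKM in Ob, against 32.9 and 31.3 in Ob + Exe. The libraries of each group were close to each other and the groups were apart, with a log2 fold change of -0.65 against an SD within the groups of 0.0671. Leaving out each library in turn moved this value only from -0.71 to -0.59. Vpreb3 was thus lower in Ob + Exe by a smaller factor than Igll1, but with the smallest spread between libraries among the 10 genes. Gm16221, on the opposite strand, overlaps the span of Vpreb3 and stood at no more than 0.433 scaled FPKM in any library.

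**Figure D1:**
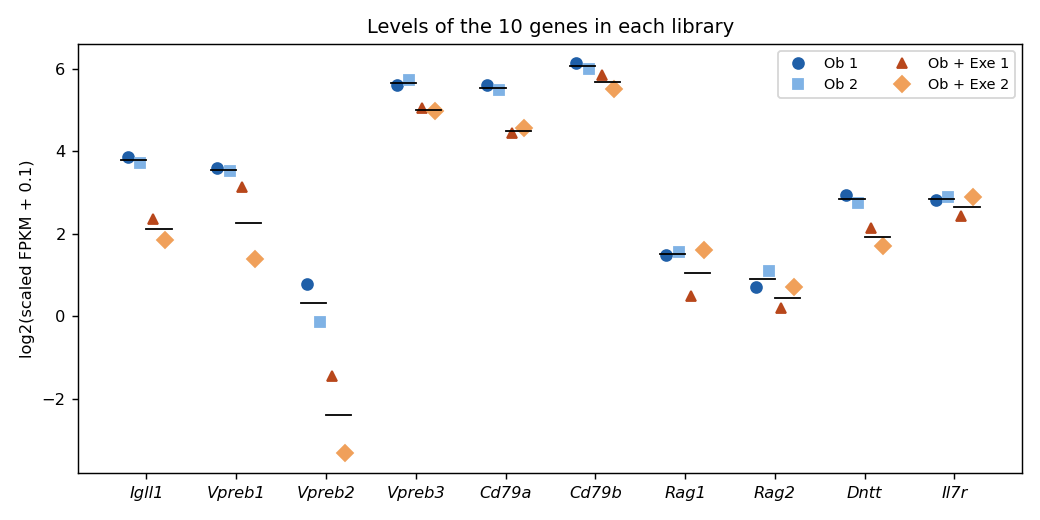
Level of each of the 10 genes as log2(scaled FPKM + 0.1) on the y axis, with 1 point per library (blue for Ob, orange for Ob + Exe) and a black line at the mean of the log2 values of each group. The Ob + Exe points lie below the Ob points for every gene except Rag1 and Il7r, and Vpreb2, listed at 0 in Ob + Exe 2, has the lowest level.

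The signaling chains of the receptor differed from each other. Cd79a (ENSMUSG00000003379.7), on chromosome 7 from 24897381 to 24902197 on the plus strand, stood at 48.3 and 44.6 scaled FPKM in Ob, against 21.6 and 23.4 in Ob + Exe. Its mean was 51.6% lower, with a log2 fold change of -1.04 against an SD within the groups of 0.0824, and both Ob + Exe libraries were close to each other and below both Ob libraries. Cd79b (ENSMUSG00000040592.11), on chromosome 11 from 106311341 to 106314762 on the minus strand, encodes the partner chain. Its level was 69.6 and 63.0 scaled FPKM in Ob, against 57.1 and 45.2 in Ob + Exe, the highest of the 10 genes in each library. The groups of Cd79b did not overlap, but the log2 fold change was -0.38, and the lower Ob library and the higher Ob + Exe library were close. The Cd79a to Cd79b ratio, which does not depend on how the libraries were scaled, was 0.694 and 0.707 in Ob, against 0.378 and 0.517 in Ob + Exe. Cd79a thus stood lower relative to its partner in both exercised libraries.

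Of the genes of V(D)J recombination, Dntt stood farther apart between the groups than Rag1 and Rag2. Dntt (ENSMUSG00000025014.13), on chromosome 19 from 41029275 to 41059525 on the plus strand, stood at 7.54 and 6.59 scaled FPKM in Ob, against 4.31 and 3.16 in Ob + Exe. Its mean was 47.2% lower, with a log2 fold change of -0.92 against an SD within the groups of 0.237, from between 352 and 1012 read equivalents per library.

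Rag1 and Rag2 are neighbours on chromosome 2, with 5752 bases between their ends. Rag1 (ENSMUSG00000061311.6, 101638282 to 101649501, minus strand) had 2.70 and 2.84 scaled FPKM in Ob, against 1.32 and 2.95 in Ob + Exe. The first Ob + Exe library was low and the second was above both Ob libraries, so the groups overlapped. The log2 fold change of -0.46 became 0.089 without Ob + Exe replicate 1 and -1.02 without Ob + Exe replicate 2. Rag2 (ENSMUSG00000032864.4, 101624718 to 101632529, plus strand) had 1.55 and 2.02 scaled FPKM in Ob, against 1.05 and 1.53 in Ob + Exe. Here the groups did not overlap, but the nearest libraries stood at 1.55 and 1.53, and the log2 fold change of -0.45 compares with an SD within the groups of 0.311. Both RAG genes were thus lowest in the first Ob + Exe library, whereas Igll1, Vpreb1, Vpreb2 and Dntt were lowest in the second. A gene listed as B230118H07Rik has a span that covers parts of both RAG genes, on the strand of Rag1. It stood at 3.25 and 3.57 scaled FPKM in Ob, against 1.59 and 2.93 in Ob + Exe, lowest in the same library as the RAG genes, and reads from the shared span cannot be assigned with certainty.

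Il7r (ENSMUSG00000003882.5), on chromosome 15 from 9505788 to 9530176 on the minus strand, was the member that differed least. Its level was 6.93 and 7.26 scaled FPKM in Ob, against 5.27 and 7.33 in Ob + Exe. The groups overlapped, the second Ob + Exe library being the highest of the 4, and the log2 fold change of -0.19 was smaller than the SD within the groups of 0.236. Il7r is also made by T cells and other lymphoid cells. Of 10 T cell markers, 7 had a log2 fold change below 0 and none was called (at an unadjusted p under 0.05, none in limma), and their summed level was 36.4 and 32.5 scaled FPKM in Ob, against 38.4 and 25.7 in Ob + Exe.

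**Figure D2:**
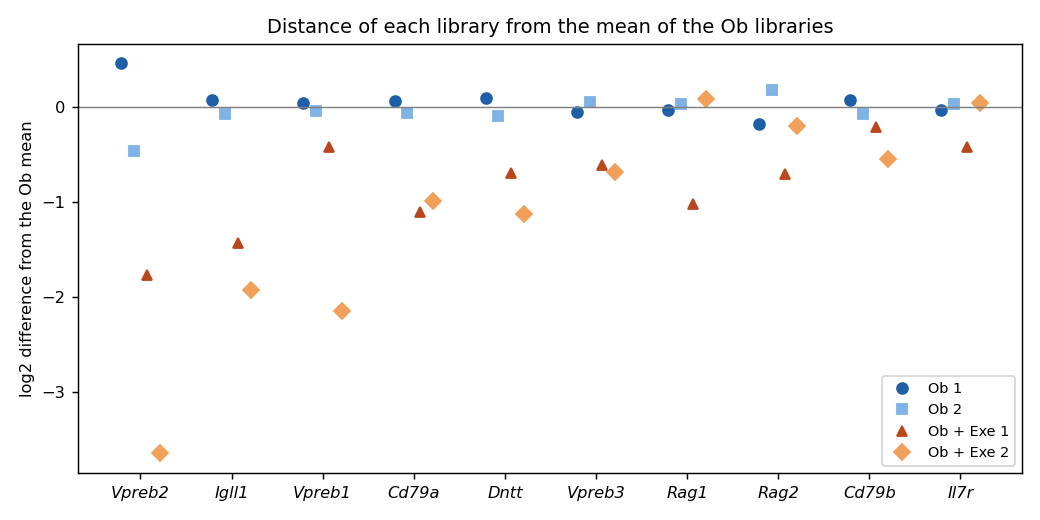
Difference of each library from the mean of the Ob libraries in log2(scaled FPKM + 0.1) on the y axis, for the 10 genes ordered by their log2 fold change, with 1 point per library. Both Ob + Exe libraries are close together for Cd79a and Vpreb3, and far apart for Vpreb1, Vpreb2 and Rag1.

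Across the set, all 10 genes passed the filter of a mean FPKM of at least 0.1, and 8 of the 10 had both Ob + Exe libraries below both Ob libraries, as had 18.7% of the 18596 genes tested. The exceptions were Rag1 and Il7r. The median log2 fold change of the 10 genes was -0.78, beside -0.02 over all genes tested. At the thresholds of the study (unadjusted p under 0.05 in limma and a log2 fold change beyond 1), Igll1, Cd79a and Vpreb2 were called lower, that is 3 of 10, beside 2.73% of all genes tested. Igll1 and Cd79a were the reason for choosing the set, so nothing is read from this count. After Benjamini-Hochberg adjustment no gene of the table passed 0.05 in limma (smallest adjusted p 0.768), and 933 genes had an unadjusted p under 0.05. Where a library was left out, its group kept 1 library, which is assumed to vary like the libraries of the other group. In these fits none of the 10 genes was called without Ob replicate 1, Igll1 and Cd79a without Ob replicate 2 or without Ob + Exe replicate 2, and Igll1, Vpreb1, Vpreb2 and Dntt without Ob + Exe replicate 1.

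The ratio to Cd79b, the member with the highest level, describes the other members relative to a gene that B cells express from the precursor to the mature stage. Igll1 stood at 0.206 of Cd79b in each Ob library, against 0.0876 and 0.0779 in Ob + Exe. Dntt stood at 0.108 and 0.105 in Ob, against 0.0754 and 0.0699 in Ob + Exe. For these genes the groups were apart and the libraries of a group were close together. Vpreb1 had ratios of 0.172 and 0.179 in Ob, against 0.151 and 0.0561 in Ob + Exe, again with the second Ob + Exe library far below the first. Vpreb3 had ratios of 0.696 and 0.833 in Ob, against 0.576 and 0.692 in Ob + Exe, where the nearest libraries almost met. Relative to Cd79b, Rag1, Rag2 and Il7r overlapped between the groups, and each was highest in the second Ob + Exe library. Igll1 was also lower relative to Dntt, with a ratio of 1.90 and 1.97 in Ob, against 1.16 and 1.11 in Ob + Exe. The ratios depended on which signaling chain was the reference. Relative to Cd79a, Igll1 stood at 0.297 and 0.291 in Ob, against 0.232 and 0.151 in Ob + Exe. Vpreb3 stood at 1.003 and 1.18 of Cd79a in Ob, against 1.52 and 1.34 in Ob + Exe. Igll1 was thus lower relative to either chain, whereas Vpreb3 was lower relative to Cd79b and higher relative to Cd79a.

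**Figure D3:**
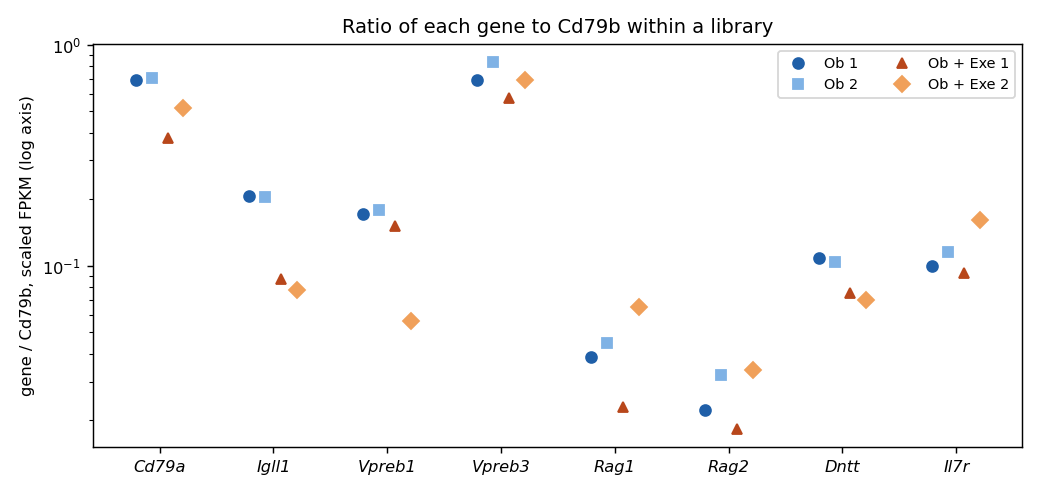
Scaled FPKM of each gene divided by that of Cd79b in the same library, on a logarithmic y axis, with 1 point per library; Vpreb2 is left out because it is listed at 0 in Ob + Exe 2. The ratios of Igll1 are 0.206 in both Ob libraries and under 0.09 in both Ob + Exe libraries, while those of Rag1, Rag2 and Il7r overlap between the groups.

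The tables list 22 transcripts of the 10 genes, of which 2 are at 0 in every library. StringTie divides the reads of a gene between transcripts that share most of their sequence, so the division is less certain than the sum. For Igll1, the protein-coding transcript Igll1-201 stood at 12.9 and 11.0 scaled FPKM in Ob, against 2.65 and 2.85 in Ob + Exe. The remainder was assigned to Igll1-202, annotated as a transcript that keeps an intron, with 1.44 and 1.93 in Ob, against 2.35 and 0.673 in Ob + Exe. The intron-keeping transcript held 14.9% of the Igll1 level in the second Ob library, less in the first, and 47.0% and 19.1% in Ob + Exe. The lower level of Igll1 was thus found in its coding transcript, where the Ob + Exe libraries were almost equal, and the difference between them came from Igll1-202. In Vpreb1, 31.0% of the level in the first Ob + Exe library was assigned to the intron-keeping transcript Vpreb1-203, which had at most 0.240% in the other libraries. The coding transcript Vpreb1-201 stood at 9.49 and 11.3 scaled FPKM in Ob, against 5.96 and 2.53 in Ob + Exe.

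For Dntt, the transcript Dntt-202 held 84.8% and 72.5% of the level in Ob, is listed at 0 in the first Ob + Exe library and held 60.2% in the second. Dntt-201 held 94.0% in the first Ob + Exe library. Cd79b was assigned mainly to Cd79b-202, at 64.2 and 62.0 scaled FPKM in Ob, against 47.1 and 35.4 in Ob + Exe. The share of Cd79b-201 was 7.77% and 1.57% in Ob, against 17.6% and 21.6% in Ob + Exe, with both exercised libraries above both Ob libraries. Vpreb3-202, which starts upstream of the main transcript, stood at 3.11 and 2.42 scaled FPKM in Ob and is listed at 0 in both Ob + Exe libraries. Il7r-204 is listed at 0 in the first library of each group and held 31.5% and 36.3% in the second, a division that went with the replicate and not with the group.

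**Figure D4:**
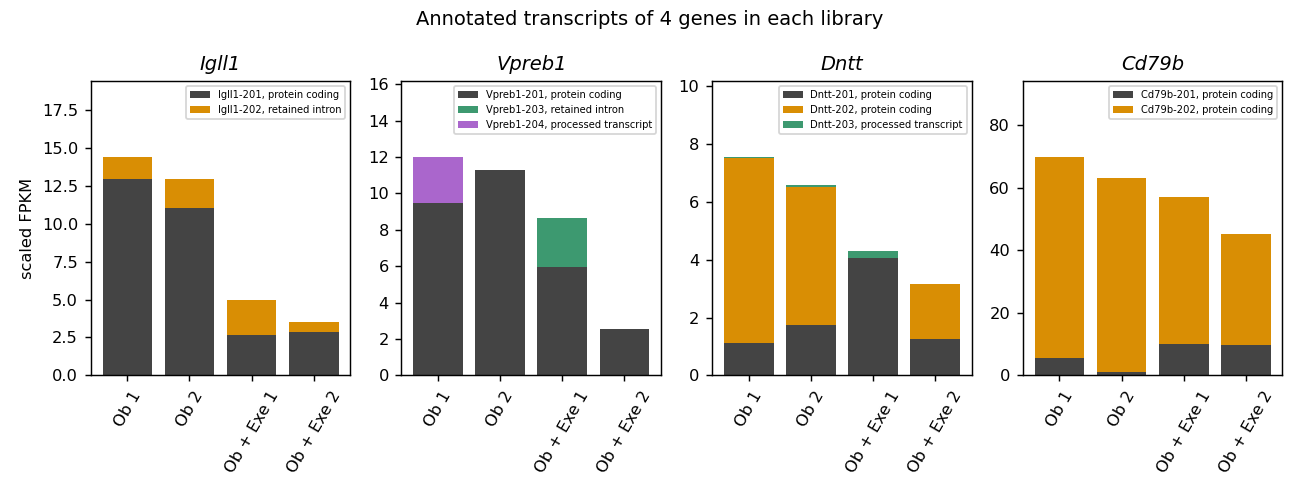
Scaled FPKM of the annotated transcripts of Igll1, Vpreb1, Dntt and Cd79b, stacked to the level of the gene in each library (bars start at 0, colours mark transcripts). The coding transcript of Igll1 is about equally low in both Ob + Exe libraries, at 2.65 and 2.85 scaled FPKM, while the transcripts of Dntt and Vpreb1 divide differently between libraries.

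The promoters of the 6 members with the most negative log2 fold changes are shown, since early B cell factor (EBF1), E proteins and Ikaros are known to act on genes of this set. RefSeq windows of 300 bases (build GRCm38.p6, from 250 bases before the start) matched 9 of the 10 genes by symbol, all but Cd79b. The first motif searched was CCCNNGGG, the core of the EBF1 site. The E-boxes were CAGGTG and, as a second form, CAGCTG. The Ikaros motif was TGGGAA. The motif of the TATA box was TATAAA. Each was searched on both strands, and in Vpreb2 the second E-box and the Ikaros match share bases. The bases in front of the gene starts in GENCODE are given 5′ to 3′ on the strand of the gene, with matches in capitals. For Vpreb1 and Vpreb3 the start used is that of the main transcript, Vpreb1-201 and Vpreb3-201. The annotated span of each of these genes begins farther upstream. For Vpreb2 and Cd79a the RefSeq start lies 137 and 116 bases inside the GENCODE start, so less of their windows is shown. The stretches lie at chr16:16863986-16864135 (minus strand) for Igll1, chr16:16869256-16869405 (minus strand) for Vpreb1, chr16:17980315-17980427 (plus strand) for Vpreb2, chr10:75948150-75948299 (plus strand) for Vpreb3, chr7:24897247-24897380 (plus strand) for Cd79a and chr19:41029125-41029274 (plus strand) for Dntt.
Igll1: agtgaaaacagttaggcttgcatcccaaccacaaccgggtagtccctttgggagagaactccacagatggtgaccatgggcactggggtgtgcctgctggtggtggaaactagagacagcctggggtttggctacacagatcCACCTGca
Vpreb1: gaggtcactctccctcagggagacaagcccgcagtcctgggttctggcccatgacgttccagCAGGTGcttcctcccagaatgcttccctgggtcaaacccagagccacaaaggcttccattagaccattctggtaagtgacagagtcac
Vpreb2: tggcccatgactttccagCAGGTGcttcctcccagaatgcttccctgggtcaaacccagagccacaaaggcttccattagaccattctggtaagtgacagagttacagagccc
Vpreb3: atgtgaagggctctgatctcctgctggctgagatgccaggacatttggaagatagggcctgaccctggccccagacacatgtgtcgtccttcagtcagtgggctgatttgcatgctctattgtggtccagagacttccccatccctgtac
Cd79a: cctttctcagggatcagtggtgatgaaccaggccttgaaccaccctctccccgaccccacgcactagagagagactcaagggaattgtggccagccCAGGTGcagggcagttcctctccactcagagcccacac
Dntt: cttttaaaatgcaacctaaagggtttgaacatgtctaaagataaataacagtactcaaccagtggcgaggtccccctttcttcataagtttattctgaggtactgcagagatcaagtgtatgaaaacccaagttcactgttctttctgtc

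CAGGTG or its reverse complement was found in the windows of 5 of the 9 genes, Igll1, Vpreb1, Vpreb2, Cd79a and Rag1, beside 20.2% of all 32851 RefSeq windows of this length. The windows of Vpreb3 and Dntt held none of the motifs searched. Counted from the RefSeq start, it began at -8 in Igll1 and at -88 in Vpreb1. The match of Vpreb1 and that of Vpreb2 lie in the same sequence, as 104 of 106 aligned bases in front of these copies are identical, so they are not separate instances. CAGCTG was found in 3 of the 9 (Igll1, Rag1 and Vpreb2), beside 16.3% of all windows. It began at -158 in Igll1 and at -60 in Vpreb2, in both genes outside the stretch shown. CCCNNGGG was found in 1 of the 9, at -231 in Igll1 and outside the stretch shown, beside 13.7% of all windows. TGGGAA was found in Rag1 and Vpreb2, beside 25.6%, and TATAAA in none of the 9, beside 13.6%. The TGGGAA match of Vpreb2 began at -64. Like its CAGCTG match, it lies inside the gene as annotated in GENCODE and not in front of its start. These are matches of letters and do not show binding.

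Genes that work with the members were examined in lists written by hand. Ighm, the mu heavy chain that pairs with the surrogate light chain, stood at 1396 and 441 scaled FPKM in Ob, against 697 and 766 in Ob + Exe, with both Ob + Exe libraries between the Ob libraries (log2 fold change -0.10, adjusted p = 0.988 in limma). The sums of the later B cell genes (3265 and 1249 in Ob) and of the plasma cell markers (401 and 223 in Ob) were also higher in the first Ob library. The part of later B cells and plasma cells in the Ighm level was not tested. None of the 25 genes of pre-B receptor signaling was called by limma or by limma voom, and none had an unadjusted p under 0.05. The median log2 fold change was -0.10, and 15 were below 0. Without Ob + Exe replicate 1, 2 genes of this list were called lower.

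None of the 19 tested genes of V(D)J joining and repair was called either, by limma or limma voom, and none had an unadjusted p under 0.05. Their median log2 fold change was -0.17. Without Ob + Exe replicate 2, 2 of them were called higher. Of 19 genes of IL-7 signaling, none was called by either tool, and 2 had an unadjusted p under 0.05, both higher in Ob + Exe: the signaling inhibitor Socs3 (log2 fold change 0.86, adjusted p = 0.960 in limma) and the survival gene Mcl1 (log2 fold change 0.54, adjusted p = 0.960 in limma). The median was -0.10, and 1 gene was called higher without Ob + Exe replicate 2.

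Of the 21 B lineage transcription factors, 20 had a log2 fold change below 0, with a median of -0.28, and none was called by limma or limma voom. Without Ob + Exe replicate 1, 1 of them was called lower. Over all genes tested, 52.1% had a log2 fold change below 0. Spib, an ETS family factor of B cells and plasmacytoid dendritic cells, was the only one with an unadjusted p under 0.05 (log2 fold change -0.77, adjusted p = 0.960 in limma). Ebf1 stood at 4.74 and 5.32 scaled FPKM in Ob, against 4.42 and 3.12 in Ob + Exe, without overlap (log2 fold change -0.42, adjusted p = 0.960 in limma). Pax5, which commits cells to the B lineage, stood at 8.26 and 13.9 in Ob, against 10.5 and 7.81 in Ob + Exe, and the groups overlapped (log2 fold change -0.24, adjusted p = 0.975 in limma).

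Other genes of pro-B and pre-B cells had a median log2 fold change of -0.71, and 3 of 10 were called lower in limma, beside 2.73% of all genes tested, and none was called higher, beside 0.979%. Ly6d, a surface protein of early B cells, fell from 55.9 and 39.9 scaled FPKM in Ob to 17.5 and 28.6 in Ob + Exe (log2 fold change -1.07, adjusted p = 0.960 in limma). Il2ra, a receptor chain found on small pre-B cells and on activated T cells, fell from 1.79 and 1.64 to 0.481 and 0.851 (log2 fold change -1.28, adjusted p = 0.960 in limma). Myl4, a myosin light chain, had 5.05 and 4.26 in Ob, is listed at 0 in Ob + Exe replicate 1 and had 1.31 in Ob + Exe replicate 2 (adjusted p = 0.960 in limma). The other 7 were not called. Of these, Bst1, a surface enzyme, had 11.8 and 7.38 in Ob, against 9.53 and 24.0 in Ob + Exe (log2 fold change 0.69), Enpep had a log2 fold change of 0.11, and Cd24a, the most abundant gene of the list, had 1053 and 848 in Ob, against 577 and 1367 in Ob + Exe. The sum of the list, which is mostly Cd24a, was 1145 and 917 in Ob, against 619 and 1434 in Ob + Exe, so the sums overlapped. The number called lower was 0 without Ob replicate 1, 0 without Ob replicate 2, 1 without Ob + Exe replicate 1 (where 1 other gene was called higher), 4 without Ob + Exe replicate 2 and 1 without the filter on low values. Of 12 genes of later B cells, none was called by limma or limma voom and none had an unadjusted p under 0.05, with a median of -0.28. Of these 12, 10 had a log2 fold change below 0 and 2 above. For 6 of the 12 the groups did not overlap and the exercised values were the lower ones, beside 18.7% of all genes tested. For 1 gene the exercised values were the higher ones without overlap. The summed level of the list was 3265 and 1249 scaled FPKM in Ob, against 1193 and 2243 in Ob + Exe. This sum is mostly Igkc, which overlapped, at 3031 and 1030 in Ob, against 973 and 2067 in Ob + Exe.

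**Figure D5:**
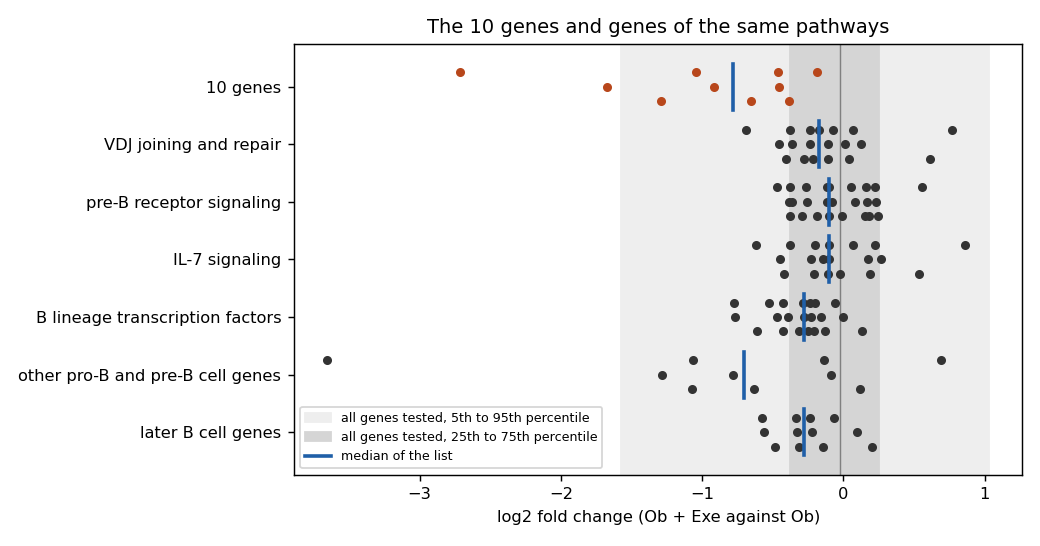
Log2 fold change (x axis, Ob + Exe against Ob) of the 10 genes and of the tested genes of 6 lists, 1 point per gene, with the median of each list in blue and the spread of all genes tested in grey. Among the lists plotted, the medians of the 10 genes (-0.78) and of the other pro-B and pre-B cell genes (-0.71) lie farthest to the left. The megakaryocyte and platelet markers, which are not plotted, had a median of -0.83.

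Other cells of the marrow were followed with marker lists in the same libraries. The 8 neutrophil markers all had a log2 fold change above 0, with a median of 0.36 and none called (none at an unadjusted p under 0.05 in limma), and they summed to 44091 and 25616 scaled FPKM in Ob, against 34374 and 61315 in Ob + Exe, so the groups overlapped. The 10 proliferation genes had a median log2 fold change of -0.13 and none was called (none at an unadjusted p under 0.05 in limma). Their sums were 1165 and 1285 in Ob, against 1027 and 1179 in Ob + Exe. The 5 markers of plasmacytoid dendritic cells, which can carry rearranged heavy chain genes, summed to 34.5 and 28.8 in Ob, against 43.8 and 31.4 in Ob + Exe. All 6 markers of megakaryocytes and platelets had a log2 fold change below 0 (median -0.83), 1 of them, Gp1bb, was called lower, and they summed to 458 and 335 in Ob, against 375 and 138 in Ob + Exe. The sums of the adipocyte and of the muscle markers did not overlap between the groups, but single markers did. The 5 adipocyte markers summed to 73.6 and 74.3 in Ob, against 121 and 99.97 in Ob + Exe, and of the 4 tested none was called, with Fabp4, which makes up most of the sum, at an unadjusted p under 0.05 (log2 fold change 0.62, adjusted p = 0.960 in limma). Adipoq overlapped, at 4.05 and 5.96 in Ob, against 4.12 and 8.66 in Ob + Exe, and Cidec had a log2 fold change of -0.75. The 5 skeletal muscle markers summed to 5.10 and 1.41 in Ob, against 7.70 and 7.91 in Ob + Exe, and 1 of the 4 tested, Acta1, was called higher (log2 fold change 1.55, adjusted p = 0.960 in limma), while Ckm overlapped between the groups. Of the 9 stromal and fibroblast markers, only Col1a1 was called, and it was lower (log2 fold change -1.02, adjusted p = 0.960 in limma). The median log2 fold change of the 9 was -0.04, with 5 below 0 and 4 above. Their sums overlapped, at 115 and 169 scaled FPKM in Ob, against 109 and 172 in Ob + Exe. The sums of the natural killer cell, plasma cell, monocyte and erythroid markers overlapped between the groups, with none called (none at an unadjusted p under 0.05 in limma). The part of these cells in the values of the 10 genes was not tested.

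The genes whose profile over the 4 libraries was most like that of a member were found by the distance of centred log2 values among 12405 genes with a mean scaled FPKM of at least 1. Nearest to Igll1 were Gm15915 (distance 0.151), Tspan9 (0.249), 1810059H22Rik (0.261), Dkkl1 (0.323) and Alox12 (0.395). Vpreb2, with a mean of 0.677 scaled FPKM over the libraries, was below the minimum and was not compared. The nearest of the members compared was Dntt, at 0.763, which would rank 70 among the genes outside the set. Nearest to Cd79a were Lair1 (0.0843), Ubl5 (0.0855), Fhl1 (0.0970), Tlcd2 (0.105) and Nabp2 (0.128), and the nearest member was again Dntt, at 0.413. With 4 libraries and so many genes, such nearness is a description of the profile alone.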

How the data were processed

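RNA-seq of tibial bone marrow from 2 Ob and 2 Ob + Exe libraries was examined, grouped by the titles of the libraries. The authors trimmed reads with fastp, removed rRNA reads, mapped the rest to GRCm38 with HISAT2, filtered them with SAMtools and ran StringTie with GENCODE vM25. Versions are not given in the sources used here. The authors deposited, per library, the FPKM and the coverage (a signal not normalized for depth) of 142604 transcripts. FPKM were summed to genes, scaled with median-of-ratios factors (0.949 to 1.03), and those whose FPKM averaged 0.1 or more were tested as log2(FPKM + 0.1) with limma 3.58.1 in R 4.3.3 (lmFit, eBayes with an intensity trend). Fold changes on this scale understate those of low genes. The thresholds for a call were those of the study (log2 fold change beyond 1, unadjusted p under 0.05). The limma test was checked on simulated data. The DESeq2 test of the authors needs counts, which were not used here. With 2 libraries per group an exact permutation test cannot go below 0.333.

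The members and lists were chosen with earlier results of these data known. Of the list genes, H2afx and Ahsp were not found by symbol. Named genes are the members, called list genes, those with an unadjusted p under 0.05 (chosen after their values were seen), Ighm, Ebf1, Pax5, the nearest profiles and examples of list members that were not called (chosen after their values were seen). A further gene that was to be named whatever its values is not reported here. Transcript types are from GENCODE vM21 by transcript ID. Alternatives were other minimum values, pseudocounts, normalizations, limma voom on read equivalents, no trend, the replicate block, the main transcript alone and leaving out each library. Python 3.11.15 with pandas 2.3.3 was used for the sums and matplotlib 3.10.9 for the figures.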

Additional observations from a re-analysis of the deposited data

How the results depend on the processing

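Of 139 log2 fold changes of members under the alternatives, 2 turned above 0, those of Rag1 and Il7r without Ob + Exe replicate 1. Leaving out each library gave -1.02 to 0.089 for Rag1 and -0.42 to 0.046 for Il7r. Their median stayed below 0 in each of the 14 settings that gave one. The count of members called lower ranged from 0 without Ob replicate 1 to 4 with the replicate block, and the median was the same, -0.78, with the block. The replicate numbers are from the labels. Differences of replicate 1 from replicate 2 had a correlation of -0.106 between the groups across all genes tested, so the number was not taken as a pairing. With the replicate block 545 genes were called lower and 231 higher; with the crossed pairing, added after seeing the data, 541 and 241. In the main test 508 and 182 were called. These numbers were 176 and 91 with a minimum mean FPKM of 1 (fewer genes tested), 152 and 72 with a pseudocount of 1. They were 822 lower without a filter (more genes tested), 789 lower without the intensity trend and 95 higher with limma voom. Leaving out each library gave 650 to 1270 lower and 95 to 652 higher, in fits where the group with 1 library is assumed to vary like the other group. Where no construction is named, the cause was not tested. With the main transcript alone the log2 fold change of Dntt was -3.65, because Dntt-202 is listed at 0 in Ob + Exe replicate 1. With at most 84 read equivalents per library, the size of the difference of Vpreb2 was not resolved at this depth.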
